A study of Macaca mulatta with 6 samples.

Results

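Splicing factors and the proteins of the small nuclear ribonucleoproteins (snRNPs) were followed in single blood progenitor colonies of rhesus macaques. The members were the rows of the count table whose symbol begins with SRSF, HNRNP, SF3A or SF3B, SNRPA to SNRPG, SNRNP or PRPF with a number where the family has one, or is LSM1 to LSM8, U2AF1 or U2AF2, with the row of highest total taken for each symbol. This gave 72 members of 32386 rows, and all 72 passed the filter on low counts. Each colony was a granulocyte-macrophage colony (CFU-GM) grown for 14 days in semi-solid medium from a bone marrow CD34+ cell, sampled 15 months after the animals' own mobilized CD34+ cells had been treated with CRISPR/Cas9 and returned to them. The 3 libraries titled WT are of colonies with wild type TET2. The 3 titled TET2 UA are of colonies with a predicted loss-of-function mutation of 1 allele (TET2+/-). Whether each library is a separate colony is not stated. Both groups therefore came from edited, transplanted marrow, and the number of animals behind them is not in the labels. TET2 encodes an enzyme that oxidizes methylated cytosine in DNA.

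Introns are removed from pre-mRNA by the spliceosome, a machine assembled anew on each intron from snRNPs. Each of the U1, U2, U4 and U5 snRNPs carries a ring of Sm proteins around its RNA, whereas U6 carries the related ring of LSM proteins. U1 reads the upstream splice site, U2 with its SF3A and SF3B subcomplexes reads the branch point, and the tri-snRNP of U4, U6 and U5 brings in PRPF8 and the helicase SNRNP200, which form and remodel the catalytic centre. SR proteins and hnRNP proteins bind the transcript and influence which splice sites are used. SF3B1, SRSF2, U2AF1 and ZRSR2 are recurrently mutated in clonal hematopoiesis and myelodysplasia. SRSF2 was not analysed here.

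Total counts ran from 6334264 to 25485143 per library, with UA replicate 3 the smallest and WT replicate 1 the largest. TET2 itself stood at 79.3, 92.8 and 109 CPM (the usual depth-normalised count, with each library total adjusted by its TMM factor) in WT and at 238, 225 and 229 CPM in UA, so its RNA level does not check the labels. The UA libraries lay closer together than the WT libraries. Between pairs of them the median gene-wise variance was 4.12 to 5.16 times that of counting alone. It was 11.3 times for WT replicates 2 and 3 and 45.6 and 45.9 for the pairs with WT replicate 1. Over the 72 members alone it was 14.4 times for WT replicates 2 and 3 and 99.9 and 153 for the pairs with WT replicate 1. These ratios were taken without TMM factors and grow with depth, so they are not strictly comparable between pairs. WT replicate 1 was the deepest library and had a TMM factor of 0.86. At the median of the 72 members the coefficient of variation was 5.16% in UA and 18% in WT. Over all genes tested it was 10.9% in UA and 25.5% in WT. One RNA source split over 3 UA libraries cannot be told apart from 3 very similar colonies, so counts are also given with the UA libraries summed to 1 sample, where all spread comes from WT. WT replicate 1 stood apart from the other WT libraries. Nothing in the labels says that replicates are separate cultures or animals, so p-values cover the spread among these 6 libraries alone, some of which may be technical.

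The groups also differed in markers of cell types and state. Over all 13768 genes tested, 34.6% were called higher and 31.4% lower in UA, and the marker counts here stand beside those shares. CFU-GM markers were present in both, with 9 of 13 tested higher and 3 lower in UA, and their summed level ran from 2968 to 3454 CPM in WT and from 32220 to 33187 CPM in UA. MPO stood at a mean of 16743 CPM in UA and 810 CPM in WT, while the monocyte marker CD14 stood at 21.7 and 1147 CPM. Other markers of the monocyte line were mixed. CD68 was higher (51.6 CPM in UA, 7.62 in WT), FCGR1A lower (24.6 and 37.7 CPM), and CSF1R did not pass (149 and 130 CPM). Megakaryocyte markers were higher in 8 of 13 and lower in 2 (532 to 593 CPM summed in WT, 940 to 957 in UA), and stromal and endothelial markers were higher in 11 of 12 and lower in 1 (191 to 242 CPM in WT, 1370 to 1386 in UA). Among mast cell and eosinophil markers 6 of 7 were higher (102 to 111 CPM in WT, 1495 to 1595 in UA), and IL5RA had no count in WT. Erythroid markers (3 of 6 higher, 2 lower) summed to 330 to 359 CPM in WT and 596 to 649 in UA, and lymphoid markers (5 of 8 higher, 3 lower) to 268 to 318 and 333 to 369 CPM. CD3E had no count in WT, only 1, 5 and 1 counts in UA, and was not tested. COL3A1 had 0, 0 and 1 counts in WT. Of 16 proliferation genes 11 were lower and 1 higher in UA (5416 to 5721 CPM summed in WT, 4056 to 4192 in UA), and of 12 immediate-early genes 10 were higher and 1 lower (1312 to 1461 CPM in WT, 3874 to 4037 in UA). Their part in the results below was not tested, and fewer cells of a type cannot be told apart from less RNA per cell.

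Transcripts of the snRNP ring members were lower in UA, while those of PRPF8, SNRNP200, SF3B1 and SF3A1 were higher. Other scaffold or bridging proteins did not rise with these: SF3B3 and PRPF6 did not pass, at log2 fold changes of -0.11 and 0.06. Of the 72 members, 38 fell, 17 rose and 17 did not pass in edgeR's quasi-likelihood test at an adjusted p under 0.05. As shares of those tested, 52.8% fell and 23.6% rose, beside 31.4% lower and 34.6% higher over all 13768 genes. The counts by role below stand beside those same shares of all genes. The median log2 fold change of the members was -0.53 and that of all genes tested 0.12. Among all 72 members, 23 were called lower with a log2 fold change below -1, and 8 were called higher with one above 1. Of all 13768 genes tested, 21.4% and 27.4% were called lower and higher past those bounds. The UA libraries all lay below the WT libraries for 42 members and above them for 19, where 34% and 39.2% of all genes did so (73.2% in either direction). In either direction 55 members were called, beside 66% of all genes.

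With the UA libraries summed, 24 members fell and 8 rose, beside 17.5% and 21.4% of all genes. These 32 were among the 55 called with 3 UA libraries and had the same direction, and no called member changed sign. With the UA libraries summed and WT replicates 2 and 3 alone, a setting added with the values known, 39 fell and 19 rose, among them 54 of the 55, beside 25.8% and 27.5% of all genes. Scaling by library size alone moved the median of all genes to 0.28 and that of the members to -0.35, with 35 lower and 21 higher, beside 27.4% and 37.5% of all genes. Without WT replicate 1, 41 members fell and 21 rose, beside 31.9% and 37.4% of the 14367 genes then tested.

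**Figure D1:**
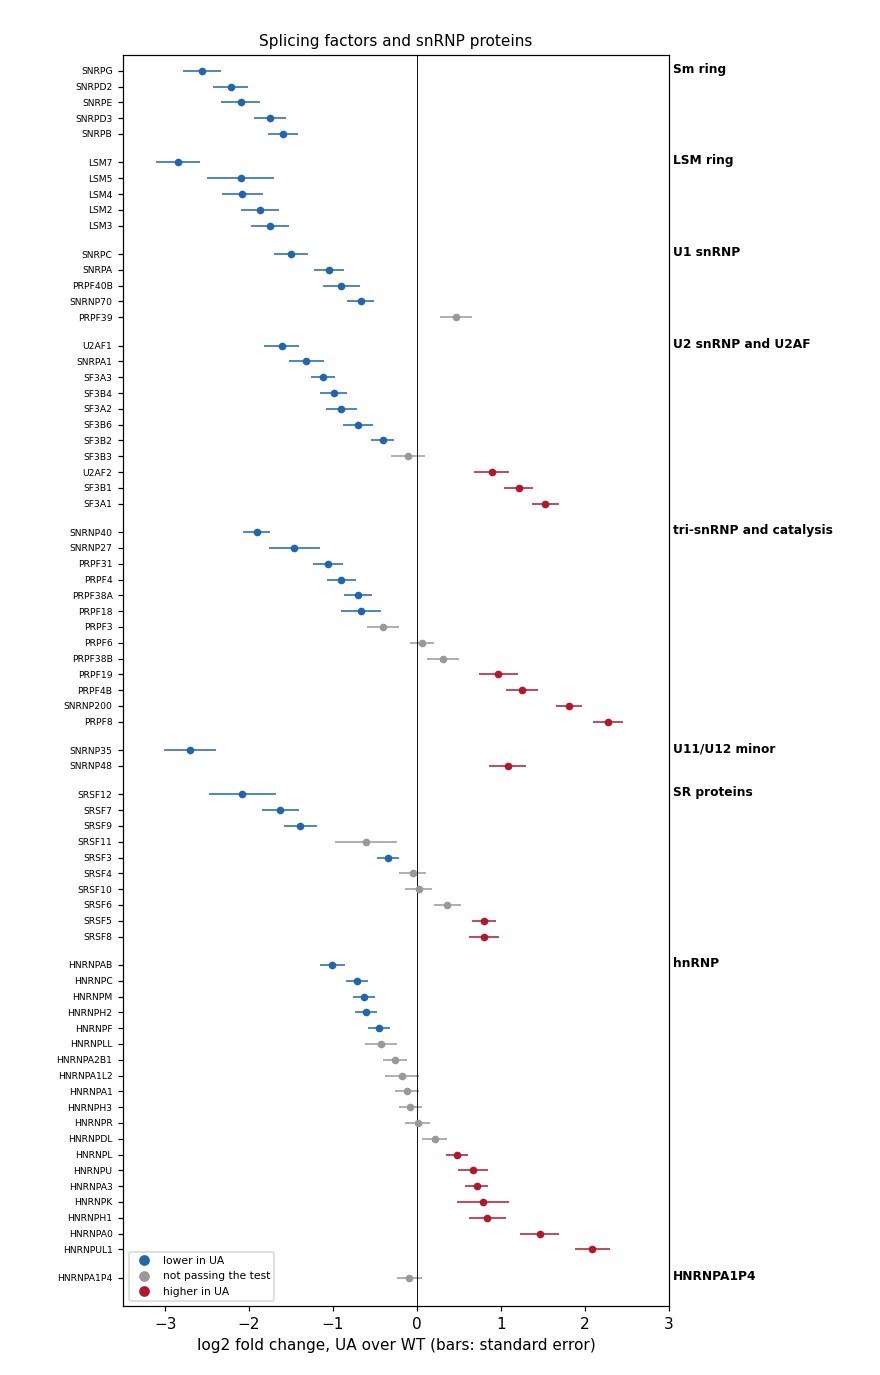
Log2 fold change of 71 of the 72 members, UA over WT (horizontal axis), with its standard error as a bar, by role in splicing. Blue points fell, red points rose and grey points did not pass the edgeR test; all 10 Sm and LSM ring members lie below -1.5, and PRPF8, at 2.28, lies farthest to the right.

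The Sm ring members moved in 1 direction. SNRPD1 and SNRPF were not among the members, so the ring was covered only in part. All 5 Sm members fell, by 1.60 to 2.56 on the log2 scale, and also fell with the UA libraries summed. SNRPG, a small ring subunit, had 326, 177 and 212 CPM in WT replicates 1 to 3 and 41.0, 40.3 and 40.3 CPM in UA. All UA values lay far below the lowest WT value, and WT replicate 1 was the highest library. Its mean was 239 ± 78.1 CPM in WT and 40.5 ± 0.388 CPM in UA (SD, n = 3 each), 5.89-fold lower, with a log2 fold change of -2.56 (adjusted p = 4.53e-06 by edgeR, SE 0.23). SNRPG lies on chromosome 13 from 71363786 to 71375996 (coordinates here and below are those of the authors' deposited table, whose build is not stated; Mmul_8.0.1 is the build in the submitters' processing notes).

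SNRPD2, which pairs with SNRPD1 during ring assembly, had 744, 405 and 522 CPM in WT and 125, 115 and 118 CPM in UA. SNRPE, another ring subunit, had 453, 242 and 268 CPM in WT and 74.7, 80.4 and 69.9 CPM in UA. For both the groups were far apart and the UA values nearly level. SNRPD2 had a log2 fold change of -2.22 (adjusted p = 7.67e-06 by edgeR, SE 0.21) and SNRPE one of -2.10 (SE 0.23, edgeR adjusted p = 2.05e-05).

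SNRPD3, the partner of SNRPB, had 288, 192 and 204 CPM in WT and 70.3, 73.1 and 59.7 CPM in UA. SNRPB, on chromosome 10 from 35281261 to 35294462, had 779, 498 and 564 CPM in WT and 209, 194 and 204 CPM in UA. These 2 ring subunits fell the least of the 5, by 1.75 (SE 0.19) and 1.60 (SE 0.18) on the log2 scale (adjusted p = 1.76e-05 and 2.24e-05, edgeR). Summed over the 5 genes, the Sm members held 2590, 1514 and 1770 CPM in WT and 520, 502 and 492 CPM in UA.

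WT replicate 1 was above the other WT libraries in each ring gene, by a median of 1.64 times over the Sm and LSM members together, where the median over all genes tested was 0.981. Without it the fall was smaller and the call stayed: SNRPG then had a log2 fold change of -2.26 and SNRPB one of -1.38. Processed copies of Sm genes are common in mammalian genomes, and the counts could be split among them. A lower-total row that carries the symbol SNRPD2 held 2100, 545 and 845 counts in WT and 289, 158 and 107 in UA. For SNRPC, a U1 protein and not a ring subunit, such a row held 1240, 371 and 561 counts in WT. In UA that SNRPC row held 258, 189 and 111 counts.

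The LSM ring members fell with the Sm members. LSM1, LSM6 and LSM8 were not among the members. LSM2 to LSM7 form the body of both the nuclear ring on U6 and the cytoplasmic ring that promotes mRNA decapping, so these 5 genes do not separate the rings. All 5 tested members fell, by 1.75 to 2.85 on the log2 scale, and all 5 also fell with the UA libraries summed. LSM7 had 318, 161 and 199 CPM in WT and 37.1, 27.9 and 29.1 CPM in UA, the largest fall of any member, at a log2 fold change of -2.85 (adjusted p = 5.45e-06 by edgeR, SE 0.26). LSM4 had 658, 323 and 404 CPM in WT and 111, 108 and 109 CPM in UA (log2 fold change -2.08, SE 0.24, edgeR adjusted p = 2.52e-05).

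LSM3 and LSM2 repeated this layout. LSM3 had 330, 187 and 185 CPM in WT and 64.3, 69.1 and 76.1 CPM in UA, and LSM2 had 81.5, 51.3 and 51.9 CPM in WT and 15.0, 18.1 and 17.7 CPM in UA. Their log2 fold changes were -1.75 (SE 0.23) and -1.87 (SE 0.23). LSM5 had 21.1, 15.4 and 13.3 CPM in WT and 5.53, 1.63 and 4.28 CPM in UA (log2 fold change -2.10, SE 0.40, edgeR adjusted p = 0.000859), resting on 102, 17 and 29 UA counts. Its row spans only 0.273 kb on chromosome 4, from 73413829 to 73414101, so reads of a second copy of the gene cannot be told apart from it.

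**Figure D2:**
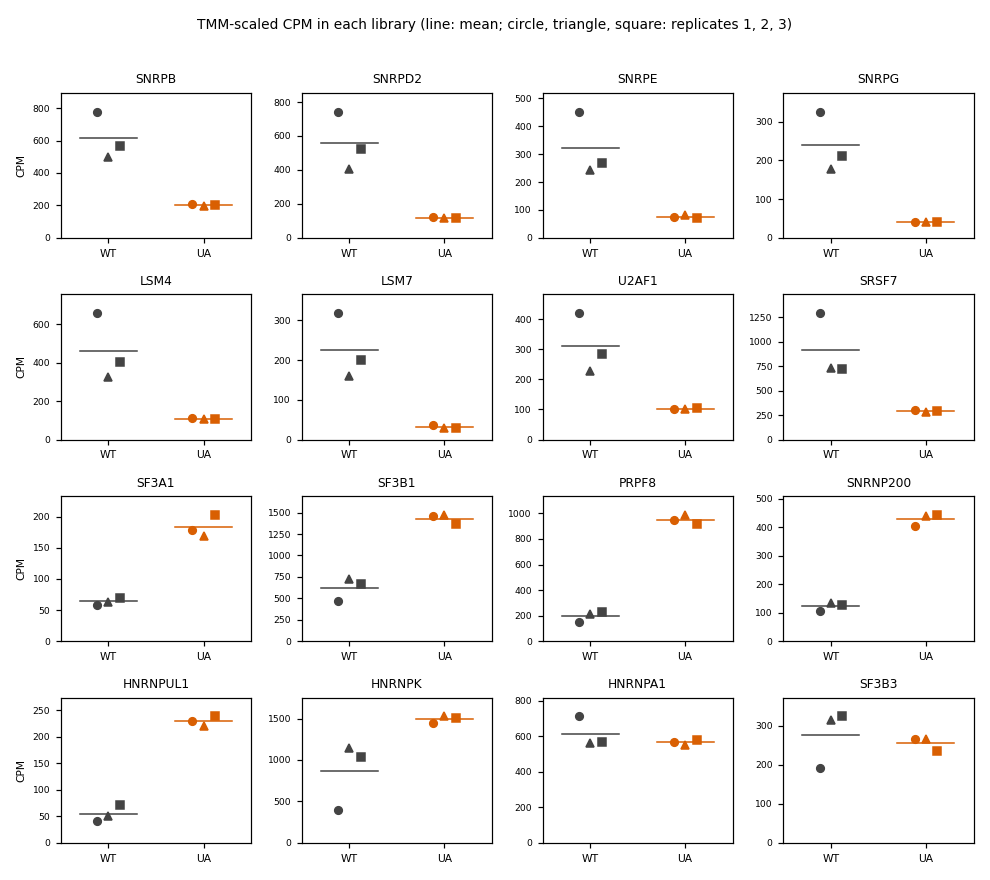
TMM-scaled CPM (vertical axes, from 0) of 16 members in the 3 WT (grey) and 3 UA (orange) libraries; circles, triangles and squares are replicates 1, 2 and 3 and lines are means. The ring genes, U2AF1 and SRSF7 are lower in UA with WT replicate 1 on top, PRPF8 and SNRNP200 are higher in UA, and HNRNPK is at 399 CPM in WT replicate 1 against 1147 and 1041 in the others.

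Among U1 proteins 5 of 6 fell and 1 did not pass, with a median log2 fold change of -0.89. SNRPC, which helps U1 grip the splice site, had 342, 209 and 228 CPM in WT and 97.4, 89.0 and 89.6 CPM in UA (log2 fold change -1.50, SE 0.20, edgeR adjusted p = 6.44e-05). SNRPA, which binds a loop of U1 RNA, had 150, 111 and 122 CPM in WT and 64.5, 52.3 and 68.1 CPM in UA (log2 fold change -1.05, SE 0.18). SNRNP70, the other U1 RNA-binding protein, fell less, from 147, 116 and 136 CPM to 82.4, 80.5 and 87.4 CPM (log2 fold change -0.67, SE 0.16, edgeR adjusted p = 0.00278). The groups did not overlap for any of these 3.

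PRPF40B, a relative of a yeast U1 protein that bridges splice sites, had a log2 fold change of -0.90 (SE 0.22). PRPF39, another U1-associated protein, had 76.3, 121 and 82.9 CPM in WT and 135, 130 and 121 CPM in UA, a log2 fold change of 0.46 (edgeR adjusted p = 0.0521) that lay on the other side of the threshold without WT replicate 1 (0.34, edgeR adjusted p = 0.025), without WT replicate 2 (0.68, 0.00431) and with library size alone (0.61, 0.0283). With the UA libraries summed, SNRPC and SNRPA were still called, while PRPF40B and SNRNP70 were not (edgeR adjusted p = 0.136 and 0.15).

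The U2 group split within its own subcomplexes: 7 of 11 fell, 3 rose and 1 did not pass. U2AF1, the small U2AF subunit, which reads the AG at the end of the intron, had 421, 229 and 286 CPM in WT and 101, 100 and 106 CPM in UA. Its log2 fold change was -1.61 (adjusted p = 6.65e-05 by edgeR, SE 0.21), and it lies on chromosome 3 from 3579123 to 3593757. U2AF2, the large subunit, which binds the polypyrimidine tract, went the other way, from 14.8, 13.3 and 17.4 CPM to 28.2, 26.2 and 29.8 CPM (log2 fold change 0.89, SE 0.21, edgeR adjusted p = 0.00303), a call lost with the UA libraries summed (0.90, edgeR adjusted p = 0.0947). The count of U2AF2 per count of U2AF1 was 0.0351, 0.0580 and 0.0609 in WT and 0.278, 0.261 and 0.282 in UA.

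In the SF3A subcomplex SF3A1, which holds its 2 partners together, had 58.2, 63.6 and 69.9 CPM in WT and 179, 169 and 203 CPM in UA. It rose 2.88-fold (log2 fold change 1.53, SE 0.16, edgeR adjusted p = 1.11e-05). Its partner SF3A3 had 479, 428 and 393 CPM in WT and 207, 199 and 193 CPM in UA and fell 2.17-fold (log2 fold change -1.12, SE 0.14, edgeR adjusted p = 4.59e-05). SF3A2 fell as well, with a log2 fold change of -0.90 (SE 0.18), a call lost with the UA libraries summed (-0.84, edgeR adjusted p = 0.0966). There were 0.122, 0.148 and 0.178 counts of SF3A1 per count of SF3A3 in WT and 0.867, 0.851 and 1.05 in UA.

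SF3B1, the scaffold of the SF3B subcomplex and the factor that holds the branch point, had 469, 730 and 663 CPM in WT and 1456, 1474 and 1362 CPM in UA. The lowest UA library stood well above the highest WT library, and WT replicate 1 was the lowest. Its mean was 620 ± 135 CPM in WT and 1431 ± 60.6 CPM in UA (SD, n = 3 each), which gives a log2 fold change of 1.21 (adjusted p = 0.000121 by edgeR, SE 0.17), which was 1.24 with the UA libraries summed (edgeR adjusted p = 0.00981). SF3B1 lies on chromosome 2 from 148966088 to 149070927.

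The smaller SF3B subunits did not rise with it. SF3B4 had 134, 135 and 157 CPM in WT and 77.0, 72.0 and 64.7 CPM in UA (log2 fold change -0.99, SE 0.16), SF3B6, which touches the branch point, had a log2 fold change of -0.70 (SE 0.18), and SF3B2 one of -0.41 (SE 0.14, edgeR adjusted p = 0.0252). The SF3B2 call was lost when any UA library or WT replicate 3 was left out (edgeR adjusted p = 0.134, 0.104, 0.0521 and 0.0566) and with library size alone (-0.25, 0.169). With the UA libraries summed, neither SF3B6 nor SF3B2 was called (edgeR adjusted p = 0.159 and 0.345). SF3B3, a propeller-shaped scaffold, had 192, 315 and 324 CPM in WT and 267, 267 and 235 CPM in UA, overlapping groups and a log2 fold change of -0.11 (edgeR adjusted p = 0.631), or 0.03 with library size alone. Without WT replicate 1 it was called lower (-0.31, edgeR adjusted p = 0.00173). SNRPA1, which binds U2 RNA, had 460, 287 and 260 CPM in WT and 136, 129 and 140 CPM in UA (log2 fold change -1.32, SE 0.21).

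The tri-snRNP and catalytic group held both the steepest rise of all members and 6 that fell. Of its 13 members 4 rose, 6 fell and 3 did not pass. PRPF8, the U5 protein that cradles the catalytic RNA, had 150, 214 and 226 CPM in WT and 951, 989 and 915 CPM in UA. Its mean was 196 ± 40.7 CPM in WT and 952 ± 36.9 CPM in UA (SD, n = 3 each), 4.85-fold higher, with a log2 fold change of 2.28 (adjusted p = 2e-06 by edgeR, SE 0.18). SNRNP200, the helicase that unwinds U4 from U6, had 107, 133 and 127 CPM in WT and 406, 439 and 444 CPM in UA, a rise of 3.51-fold (log2 fold change 1.81, SE 0.15, edgeR adjusted p = 2.63e-06). PRPF8 lies on chromosome 16 from 1544589 to 1584775 and SNRNP200 on chromosome 13 from 92068697 to 92098976.

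SNRNP40, a WD-repeat protein of the same U5 particle, moved against them. It had 308, 246 and 242 CPM in WT and 75.8, 71.7 and 63.9 CPM in UA, a fall of 3.76-fold (log2 fold change -1.91, SE 0.16, edgeR adjusted p = 3.31e-06). There were 0.487, 0.870 and 0.932 counts of PRPF8 per count of SNRNP40 in the WT libraries and 12.6, 13.8 and 14.3 in the UA libraries. This pair and the other ratios of subunits were picked after their values were seen and are given without a test.

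PRPF4B, a kinase of tri-snRNP proteins, had 48.4, 76.2 and 66.4 CPM in WT and 144, 144 and 164 CPM in UA (log2 fold change 1.25, SE 0.19, edgeR adjusted p = 0.000174). PRPF19, the ubiquitin ligase that names its own complex, had a log2 fold change of 0.97 (adjusted p = 0.00354 by edgeR, SE 0.23), not called with the UA libraries summed (0.0692). Among the falling members, SNRNP27 had 47.9, 34.0 and 22.7 CPM in WT and 10.9, 11.2 and 16.4 CPM in UA (log2 fold change -1.46, SE 0.30). PRPF31, which holds U4 and U6 together with PRPF4 and PRPF3, had 168, 133 and 115 CPM in WT and 65.6, 63.1 and 71.2 CPM in UA (log2 fold change -1.06, SE 0.18), and PRPF4 had a log2 fold change of -0.90 (SE 0.17), not called with the UA libraries summed (-0.85, edgeR adjusted p = 0.0728).

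PRPF38A, needed to activate the spliceosome, and PRPF18, a factor of the second catalytic step, had log2 fold changes of -0.70 and -0.67 (SE 0.17 and 0.24), and neither was called with the UA libraries summed (edgeR adjusted p = 0.16 and 0.168). The PRPF18 call was lost without UA replicate 1 (-0.49, edgeR adjusted p = 0.133), without UA replicate 3 (-0.66, 0.0773), without WT replicate 3 (-0.62, 0.0685) and with library size alone (-0.50, 0.0857). PRPF6, the bridge between U5 and U4/U6, was nearly level, at 108, 103 and 109 CPM in WT and 112, 106 and 114 CPM in UA (log2 fold change 0.06, SE 0.14, edgeR adjusted p = 0.745). PRPF3 and PRPF38B did not pass, at log2 fold changes of -0.41 and 0.31 (SE 0.19 each), and without WT replicate 1 both were called, at -0.55 and 0.54 (edgeR adjusted p = 0.000791 and 0.000178).

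Of the minor spliceosome, which removes a rare class of introns, 2 members were present and they moved apart. SNRNP35, of the U11 particle, had 47.9, 30.9 and 21.6 CPM in WT and 4.82, 5.29 and 5.46 CPM in UA, 6.49-fold lower (log2 fold change -2.70, SE 0.31, edgeR adjusted p = 2.75e-05). SNRNP48, of the same particle, had 16.9, 14.5 and 13.6 CPM in WT and 38.3, 26.2 and 30.9 CPM in UA (log2 fold change 1.08, SE 0.22, edgeR adjusted p = 0.00131). The WT libraries held 0.354, 0.471 and 0.626 counts of SNRNP48 per count of SNRNP35, against 7.94, 4.96 and 5.65 in the UA libraries.

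**Figure D3:**
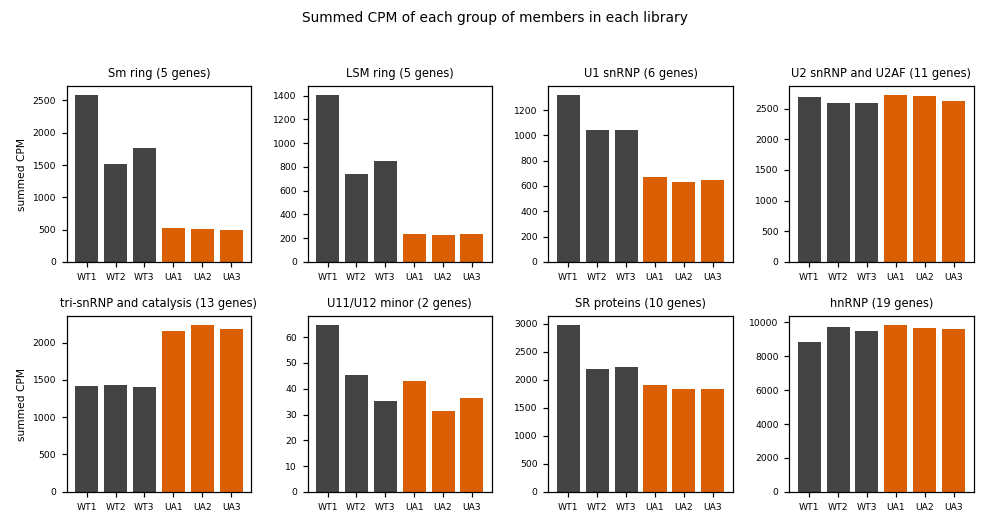
Summed TMM-scaled CPM (vertical axes, from 0) of the members of each role in each of the 6 libraries, WT grey and UA orange. The Sm and LSM sums are lower in every UA library, the tri-snRNP sum is higher at 2160 to 2240 against 1400 to 1429, and the U2 sum overlaps, at 2585 to 2684 in WT and 2629 to 2727 in UA.

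The group sums showed how opposing members balanced. Summed over the 11 U2 members the level was 2620 ± 54.9 CPM in WT and 2689 ± 52.5 CPM in UA (SD, n = 3 each), although 10 of the 11 were called. Such a sum is weighted to long and abundant transcripts, here SF3B1. Over all 72 members the sum was 21597, 19506 and 19650 CPM in WT and 18366, 18089 and 17940 CPM in UA.

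SR proteins, which carry a tail rich in arginine and serine and mostly favour exon inclusion, were mixed: 4 of 10 fell, 2 rose and 4 did not pass. SRSF7, which also couples splicing to export, had 1290, 728 and 716 CPM in WT and 306, 283 and 293 CPM in UA (log2 fold change -1.63, SE 0.22, edgeR adjusted p = 8.27e-05). SRSF9 had 543, 317 and 361 CPM in WT and 156, 149 and 161 CPM in UA (log2 fold change -1.39, SE 0.20). WT replicate 1 was again the highest, 1.79 and 1.60 times the mean of the other WT libraries, and the groups did not overlap. SRSF12, an inhibitory relative expressed at a low level, had 15.0, 10.9 and 9.26 CPM in WT and 2.60, 1.54 and 4.43 CPM in UA (log2 fold change -2.08, SE 0.40).

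SRSF5 had 387, 321 and 363 CPM in WT and 627, 615 and 623 CPM in UA (log2 fold change 0.80, SE 0.14, edgeR adjusted p = 0.000362), and SRSF8, a relative of SRSF2, had 47.2, 70.7 and 54.9 CPM in WT and 104, 97.9 and 97.8 CPM in UA (log2 fold change 0.80, SE 0.18). Neither was called with the UA libraries summed (edgeR adjusted p = 0.0524 and 0.0756). SRSF3, the smallest SR protein, fell narrowly, from 345, 314 and 321 to 254, 258 and 258 CPM (log2 fold change -0.35, edgeR adjusted p = 0.0358). The UA values lay below the WT values, yet the call was lost without WT replicate 3 or any 1 UA library (edgeR adjusted p = 0.0503, 0.141, 0.119 and 0.116), with library size alone (-0.18, 0.191) and with the UA libraries summed (-0.33, 0.453).

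The remaining SR members did not pass. SRSF4 and SRSF10 were close to level, while the groups did not overlap for SRSF6, higher in UA, and SRSF11, lower in UA. SRSF4 had 98.3, 109 and 120 CPM in WT and 107, 118 and 90.5 CPM in UA, and SRSF10, a splicing repressor in mitosis and heat shock, had 134, 153 and 123 CPM in WT and 156, 137 and 122 CPM in UA. Their log2 fold changes were -0.05 and 0.02 (SE 0.16 each), with signs that turned under other settings (0.10 for SRSF4 with library size alone, -0.06 for SRSF10 without WT replicate 3). SRSF6 had a log2 fold change of 0.36 (edgeR adjusted p = 0.0682) and was called higher without WT replicate 1 (0.24, adjusted p = 0.0202 by edgeR) or if only library size was scaled (0.51, 0.0309), and SRSF11, at means of 6.26 CPM in WT and 4.13 CPM in UA, had one of -0.61 (SE 0.37).

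The hnRNP proteins, which coat nascent transcripts and often repress splice sites, were mixed as well. Of 19 members 7 rose, 5 fell and 7 did not pass, with a median log2 fold change of -0.08. These were 36.8% higher and 26.3% lower, beside 34.6% and 31.4% of all genes tested. HNRNPUL1, a relative of the nuclear scaffold protein HNRNPU, had 40.3, 50.5 and 70.5 CPM in WT and 229, 220 and 238 CPM in UA, a rise of 4.26-fold (log2 fold change 2.09, SE 0.21, edgeR adjusted p = 9.05e-06). HNRNPA0, an intronless member that binds AU-rich mRNAs, had 12.4, 17.9 and 21.3 CPM in WT and 48.8, 43.7 and 49.2 CPM in UA (log2 fold change 1.46, SE 0.23). These 2 and HNRNPAB were the only hnRNP members still called with the UA libraries summed.

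HNRNPU had 544, 861 and 816 CPM in WT and 1177, 1193 and 1163 CPM in UA (log2 fold change 0.67, SE 0.18), and HNRNPA3 had 318, 277 and 270 CPM in WT and 496, 466 and 458 CPM in UA (log2 fold change 0.71, SE 0.14). HNRNPL, which binds CA repeats and controls exons of CD45, had a log2 fold change of 0.48 (SE 0.13) and was not called without UA replicate 1 or 3 (0.45 in both, edgeR adjusted p = 0.0534 and 0.0504). HNRNPH1, which binds G-rich runs, had 427, 233 and 240 CPM in WT and 576, 531 and 506 CPM in UA (log2 fold change 0.84, SE 0.22), and 1.19 without WT replicate 1.

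HNRNPK, which binds C-rich sequence and is a dosage-sensitive gene in myeloid leukemia, showed the widest split within WT. It had 399, 1147 and 1041 CPM in WT replicates 1 to 3 and 1448, 1525 and 1509 CPM in UA. Its log2 fold change was 0.79 (adjusted p = 0.0391 by edgeR, SE 0.31), but 0.46 without WT replicate 1 (edgeR adjusted p = 4.26e-06), and the call was lost without UA replicate 1, 2 or 3 (edgeR adjusted p = 0.0692, 0.0966 and 0.0886). The rise was thus smaller, with a smaller p, when WT replicate 1 was left out.

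Among the hnRNP members that fell, HNRNPAB had 523, 418 and 432 CPM in WT and 238, 214 and 229 CPM in UA (log2 fold change -1.01, SE 0.15, edgeR adjusted p = 0.000119). HNRNPC, which masks cryptic exons by binding uridine tracts, had 906, 914 and 873 CPM in WT and 577, 531 and 537 CPM in UA (log2 fold change -0.71, SE 0.13). HNRNPM, HNRNPH2 and HNRNPF had log2 fold changes of -0.63, -0.61 and -0.45 (SE 0.13 each). The HNRNPF call was lost without UA replicate 1 or 2 (edgeR adjusted p = 0.0542 and 0.0576).

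The other hnRNP members did not pass. HNRNPA2B1 had 1506, 1852 and 1796 CPM in WT and 1462, 1459 and 1391 CPM in UA (log2 fold change -0.26, SE 0.14, edgeR adjusted p = 0.115). It was called lower when WT replicate 1 was left out (-0.34, edgeR adjusted p = 3.02e-05). HNRNPA1, a general splicing repressor, had 711, 564 and 569 CPM in WT and 568, 553 and 581 CPM in UA, a log2 fold change of -0.12 (adjusted p = 0.489 by edgeR, SE 0.14), and 0.06 with library size alone. The rows HNRNPA1L2 and HNRNPA1P4, which span 1.18 and 0.962 kb and can share reads with HNRNPA1, had log2 fold changes of -0.18 and -0.09, the latter 0.08 with library size alone. HNRNPDL had 484, 409 and 356 CPM in WT and 492, 482 and 467 CPM in UA (log2 fold change 0.21, edgeR adjusted p = 0.242), and was called higher without WT replicate 1 (0.34, edgeR adjusted p = 0.000548). HNRNPLL, HNRNPH3 and HNRNPR were at log2 fold changes of -0.43, -0.08 and 0.01 (SE 0.19, 0.14 and 0.15). HNRNPLL was called without WT replicate 3 (-0.57, edgeR adjusted p = 0.0234), HNRNPH3 had 0.08 with library size alone, and HNRNPR -0.00 with DESeq2 size factors and -0.08 without WT replicate 1.

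Gene span, from start to end with introns, was known for 62 members from the authors' deposited table. Across these 62 genes, which are not independent, Spearman's rho between span and log2 fold change was 0.18. Among the 9874 of 13768 genes tested that had a span it was 0.33. The other genes had no coordinates here, so the value is void as a background for all genes tested. Transcript length was not examined.

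Other genes of the pathway were taken from lists of known splicing genes, drawn up by function. Of 179 tested that are not members, 66 fell, 56 rose and 57 did not pass, with a median log2 fold change of 0.04. These were 36.9% lower and 31.3% higher, near the 31.4% and 34.6% of all genes tested. The counts of each list below stand beside those same shares of all genes. Summing the UA libraries left 39 lower and 38 higher.

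Genes of snRNP assembly, which load Sm rings onto RNA, fell in 13 of 18 and rose in none. GEMIN2, the SMN-complex protein that holds the open Sm ring, had 79.9, 48.9 and 55.6 CPM in WT and 13.4, 13.9 and 14.0 CPM in UA (log2 fold change -2.16, SE 0.23, edgeR adjusted p = 1.42e-05). WDR77, the partner of the methyltransferase of Sm tails, and NCBP2, the small cap-binding subunit, had log2 fold changes of -1.69 and -1.67. The other tri-snRNP proteins fell in 7 of 10 and rose in none, among them TXNL4A, a small U5 protein, from 403, 205 and 207 to 70.6, 71.6 and 67.8 CPM (log2 fold change -1.96, SE 0.25), MFAP1 (-1.51) and SNU13, which binds U4 RNA (-1.38).

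The exon junction complex and its export partners fell in 12 of 16 and rose in 1. RBM8A, a core subunit, had 557, 301 and 290 CPM in WT and 67.9, 73.5 and 69.1 CPM in UA (log2 fold change -2.45, SE 0.25, edgeR adjusted p = 1.09e-05), and THOC6 and THOC3, of the export complex, had log2 fold changes of -2.09 and -1.94. PRP19-complex and step factors fell in 9 of 18 and rose in 1, with CTNNBL1, PLRG1 and BCAS2 at -1.63, -1.54 and -1.49. Among helicases 6 of 14 rose and 5 fell, and DDX39A, DDX46 and DDX41, a gene of inherited myeloid neoplasia, fell (log2 fold changes of -1.39, -0.93 and -0.92), the last 2 not called with the UA libraries summed (edgeR adjusted p = 0.0667 each).

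SR protein kinases and related genes rose in 4 of 9 tested, 1 of them the member PRPF4B, and none fell. CLK1, which phosphorylates SR proteins, had 139, 127 and 106 CPM in WT and 610, 627 and 576 CPM in UA (log2 fold change 2.28, SE 0.15, edgeR adjusted p = 8.68e-07), and CLK4 had 45.3, 51.7 and 34.4 CPM in WT and 155, 155 and 137 CPM in UA (1.77, SE 0.18). SR-related genes rose in 10 of 24 and fell in 4. CCNL1, a cyclin that binds SR proteins, had 110, 112 and 87.4 CPM in WT and 753, 757 and 733 CPM in UA, a log2 fold change of 2.86 (adjusted p = 1.91e-07 by edgeR, SE 0.16), and SREK1 and RBM39 had 1.60 and 1.28.

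Regulators of alternative splicing rose in 16 of 35 and fell in 6. SFPQ, a paraspeckle protein, had 300, 324 and 277 CPM in WT and 1997, 2023 and 1947 CPM in UA (log2 fold change 2.73, SE 0.14, edgeR adjusted p = 1.25e-07). RBM38, a regulator of erythroid splicing, and MBNL3, a muscleblind protein, rose by 3.10 and 2.74. Other U2 and early factors rose in 6 of 13 and fell in 5: FUBP1 rose from 99.5, 152 and 137 to 743, 864 and 758 CPM (2.61, SE 0.18), while PHF5A, a small SF3B subunit outside the naming rule, fell from 148, 121 and 108 to 37.0, 33.2 and 33.1 CPM (-1.87, SE 0.18).

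Nonsense-mediated decay genes, which destroy transcripts with early stop codons, rose in 5 of 9 and fell in 2, with SMG1 and SMG6 at log2 fold changes of 2.57 and 1.96. Decapping and decay partners of the LSM rings, with other LSM-family genes, rose in 7 of 12 and fell in 3. XRN1, the exonuclease that follows decapping, had 20.6, 25.9 and 22.4 CPM in WT and 139, 152 and 127 CPM in UA (2.60, SE 0.17), PATL1, which binds the cytoplasmic LSM ring, had a log2 fold change of 1.73, and LSM10, of the U7 particle, one of -1.90. Among other minor spliceosome genes 2 of 6 rose and 3 fell, with RNPC3 at 1.51 and SCNM1 and ZCRB1 at -1.66 and -1.13.

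**Figure D4:**
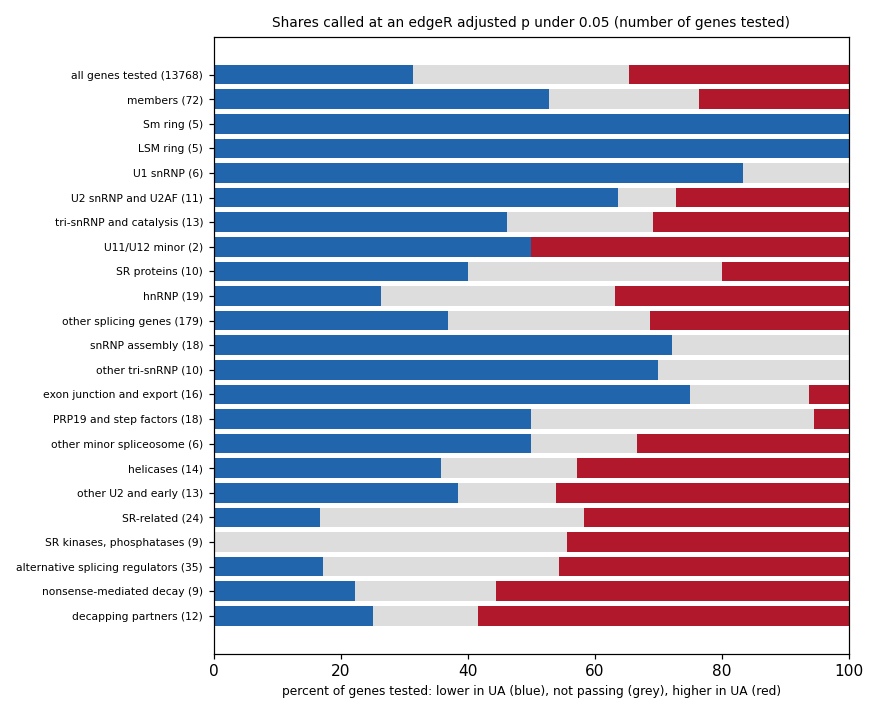
Share of genes tested (horizontal axis, percent) that were lower in UA (blue), did not pass (grey) or were higher in UA (red) by the edgeR test, for all genes, the 72 members by role, and the lists of other splicing genes, with the number tested in parentheses. The rings, snRNP assembly and other tri-snRNP rows hold no red, and the SR kinase row holds no blue.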

How the data were processed

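Colony RNA was turned into cDNA with the SMART-Seq V4 kit and then into 6 Nextera XT libraries, per the labels' protocols, so neither strand nor molecules were marked. Raw counts for each gene were deposited by the authors. Mmul_8.0.1 and bcl2fastq appear in the submitters' processing notes, with aligner and counter not given in the sources used here. A second table, deposited by the authors, holds differential expression: its columns are, per the file headers, average normalized counts (a signal), log2 fold changes with standard errors, a statistic (a score) and p-values. Which libraries it compares is not stated, so it served only for symbols and coordinates. Row names gave the symbol of 6 members, that table of 40 and the gene name table of 26, and 4 further rows of a repeated symbol were set aside.

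The quasi-likelihood F-test of edgeR 4.0.16 (R 4.3.3, robust, label as the only term) was run on all 13768 genes that passed filterByExpr (minimum count 10, minimum total 15), with TMM factors of 0.86 to 1.07 and Benjamini-Hochberg adjustment over all of them. The standard error is the size of the log2 fold change over the square root of F. The fit was also run on simulated counts with few changed genes, balanced in direction, and the same spread for all genes and both groups. These data had many more genes called and unequal spread, so that run does not check the calls here. Other settings used DESeq2 1.42.0 and limma 3.58.1. The members and lists were chosen with earlier results of these data known. Named were up to 4 called members per direction and role by smallest p, up to 3 that did not pass by mean CPM, all members of groups of at most 8, and up to 3 genes of each other list by smallest p. HNRNPA1L2, HNRNPF, HNRNPH1, HNRNPH3, HNRNPK, HNRNPL, HNRNPLL, HNRNPR, PRPF18, PRPF38A, SF3A2, SF3B2, SF3B6 and SRSF11 were added after their values were seen. Without strand, overlapping and antisense genes cannot be told apart. ZRSR2 was not analysed here, and 2 genes that this rule names are not reported here by name.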

Additional observations from a re-analysis of the deposited data

How the results depend on the processing

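With the UA libraries summed to 1 sample, whose spread is then taken from WT, 8 members were higher and 24 lower, and 38 and 39 of the other splicing genes. The members' median log2 fold change was -0.44 with upper-quartile factors, -0.35 with library size alone and -0.40 for genes with at least 5 CPM in 3 libraries; the cause was not tested. Leaving out 1 library gave 15 to 21 members higher, 34 to 41 lower and medians from -0.59 to -0.46. Among these fits the share of all genes was taken only without WT replicate 1, at 37.4% higher and 31.9% lower. No called member changed sign in any setting run. Same-numbered libraries correlated at 0.013, 0.022 and 0.013, each best with its own number, and the other pairs at -0.013 to 0. Correlations this small, with 3 libraries per group, cannot decide whether replicate numbers pair the libraries. The replicate block gave 18 members higher and 37 lower, and the share of all genes called with it was not taken.

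Signs turned only in genes that did not pass. With library size alone, log2 fold changes were 0.06 (HNRNPA1), 0.08 (HNRNPA1P4), 0.08 (HNRNPH3), 0.03 (SF3B3) and 0.10 (SRSF4), and with upper-quartile factors 0.00 (HNRNPA1P4), 0.01 (HNRNPH3) and 0.04 (SRSF4). HNRNPR had -0.00 with DESeq2 size factors and -0.01 with the DESeq2 test and with no filter. With the UA libraries summed and WT replicates 2 and 3 alone, HNRNPR had -0.04 and HNRNPA1 and HNRNPA1P4 0.01 each. Leaving out 1 library gave ranges of -0.19 to 0.01 (HNRNPA1), -0.20 to 0.02 (HNRNPA1P4), -0.08 to 0.08 (HNRNPR), -0.31 to 0.01 (SF3B3), -0.07 to 0.10 (SRSF10) and -0.14 to 0.04 (SRSF4). Low-count members such as LSM5 and SRSF12 are limited by depth.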
